A study of Mus musculus with 8 samples.

Results

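Which genes set the mouse tongue apart from the rest of the oral lining was asked by comparing all 4 tongue samples with the 4 samples of the cheek and the palate. The tongue side held 2 samples of dorsal tongue, the upper surface, and 2 of ventral tongue, the underside. The other side held 2 samples of buccal mucosa, the inner cheek, and 2 of hard palate. All 8 samples of the series were therefore members, and all came from wild-type C57BL/6J mice with no treatment named in the labels; age, sex and the number of animals are not given there. Each sample was a block of frozen mucosa cut into 20 serial sections of 14 µm. The RNA of every section was barcoded and counted by CEL-seq2, a method that reads transcript 3′ ends and counts unique molecular identifiers (UMIs), in the layout called tomo-seq. The 20 sections of each sample were added up. Levels of a sample are given as CPM, the UMIs of a gene per 1000000 UMIs of the sample's scaled total. The totals were scaled by TMM, the size scaling of the edgeR fit, so CPM differ somewhat from UMIs over the unscaled totals. For blocks of sections, CPM are per 1000000 UMIs counted in the block, without that scaling. A gene was said to separate the sides where all 4 samples of one side exceeded all 4 of the other. The labels do not number the animals. In each site 1 library had Xist at 159 to 289 CPM and Eif2s3y, a Y-linked gene, at no more than 0.513 CPM, and the other had Xist at no more than 2.27 CPM and Eif2s3y at 36.7 to 59.5 CPM, so the 2 samples of a site came from different animals, and sex is part of the spread behind every p-value. Whether an animal gave samples of more than 1 site is not stated. In such bulk samples, fewer cells of a type and less RNA per cell cannot be told apart.

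The front of the tongue forms mainly from the mandibular part of the first pharyngeal arch, whereas the palate and the upper cheek form from the maxillary part, and neural crest cells of these regions carry different transcription factors. Tongue muscle comes from precursors that migrate in from occipital somites, while cheek muscle is derived from arch mesoderm. The upper surface of the tongue bears filiform papillae, keratinised spines whose cells make hair-type keratins. Ventral tongue and buccal mucosa are grouped here as lining mucosa, and dorsal tongue is set beside hard palate. Summed cornified envelope genes did not follow this grouping. They were 45236 and 46975 CPM in dorsal tongue and 23821 and 29704 CPM in hard palate, against 38564 and 35297 CPM in ventral tongue and 33822 and 189 CPM in buccal mucosa.

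Totals ran from 16182531 to 21230278 UMIs in the tongue samples and from 7830471 to 26376536 in the cheek and palate samples. Buccal mucosa replicate 2 had the lowest total and stood apart from the other 7 libraries. Its summed keratinocyte markers were 1016 CPM, against 20607 to 27837 CPM elsewhere, and its cornified envelope genes 189 CPM, against 23821 to 46975 CPM. Its salivary gland markers summed to 16922 CPM, against 36.9 to 436 CPM elsewhere, and its adipocyte markers to 8976 CPM, against 106 to 1304 CPM. The Spearman correlation of replicates across genes was 0.976 in dorsal tongue and 0.970 in ventral tongue, against 0.838 in buccal mucosa and 0.959 in hard palate. Skeletal muscle markers, summed over their list, were 32099, 32205, 50152 and 42835 CPM in the tongue samples. They were 29060 and 79528 CPM in buccal mucosa and only 833 and 379 CPM in hard palate. A difference between the sides in a muscle gene thus meets one site with muscle and one nearly without.

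Of 18609 genes tested, 629 (3.38%) passed edgeR's quasi-likelihood test at an adjusted p under 0.05 for the mean of the tongue sites against the mean of the other sites. Of these, 552 (2.97%) were higher in tongue and 77 (0.414%) were lower. The sides did not overlap for 1338 genes (7.19%), with 759 (4.08%) higher in all 4 tongue samples and 579 (3.11%) lower. Both conditions were met by 269 genes (1.45%), 213 (1.14%) of them higher and 56 (0.301%) lower. Most gaps between the sides were narrow. The gap, on the scale of log2(CPM + 1) between the lowest sample of the higher side and the highest of the lower side, had a median of 0.17 among genes higher in tongue and 0.12 among genes lower in tongue. It exceeded 1 for 56 genes higher and 9 genes lower. At the edge of the rule, Pik3c3 separated the sides with 14.5 to 17.5 CPM in tongue against 17.5 to 24.6 CPM in cheek and palate, and Tada1 just failed to, with 9.62 to 12.7 CPM against 12.7 to 21.8 CPM.

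How much each site contributed differed. Against hard palate alone 1560 genes (8.38%) passed, and against buccal mucosa alone 17 (0.0914%). At an unadjusted p under 0.05 in edgeR the counts were closer, 4442 against hard palate and 2655 against buccal mucosa. Both comparisons use the same tongue samples. Of the 552 genes higher in tongue, 521 also passed against hard palate alone and 12 against buccal mucosa alone, with a median log2 fold change of 5.07 over hard palate and 0.58 over buccal mucosa. The genes lower in tongue were more even: all 77 had the same sign against buccal mucosa, with median log2 fold changes of −1.65 against buccal mucosa and −2.38 against hard palate. Only 12 genes (0.0645%) passed against both sites taken singly with the same sign. They were Tlx1, Foxf2, Gzmn, Lrrc15, Krt31, Krt33a, Krt83, Krt87 and the predicted gene Gm39154, all higher in tongue, and Irx5, Cfb and Gm20547, lower in tongue. Cfb and Gm20547 overlap on chromosome 17 and had nearly the same values, so their reads cannot be assigned to one of them. A stricter fit with a single mean for each side, which counts differences between the sites of a side as error, passed 3 genes (0.0161%) in edgeR, with 2019 at an unadjusted p under 0.05. These were Tlx1, Gm39154 and Shox2. Without buccal mucosa replicate 2, 1749 genes passed (8.86%), and 627 of the 629 were among them; without replicate 1 of that site 3033 passed. Leaving out any one of the 6 tongue and hard palate samples left 106 to 209 genes passing.

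**Figure D1:**
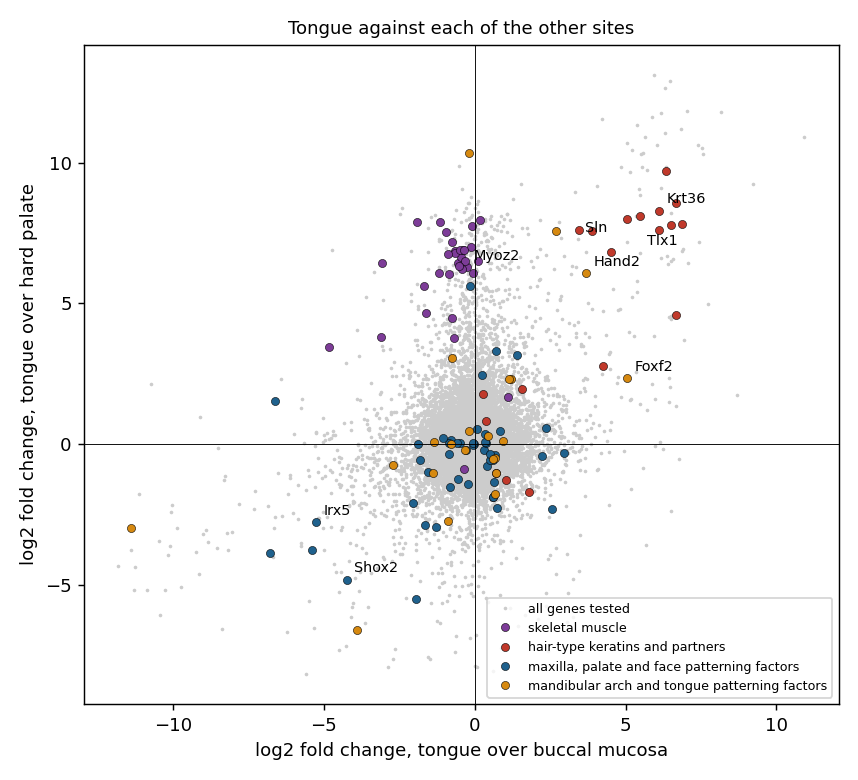
Log2 fold change of tongue over buccal mucosa (horizontal axis) and over hard palate (vertical axis) for every gene tested, 1 point a gene, with 4 gene lists in colour. The skeletal muscle list lies near 0 against buccal mucosa (median −0.57) and far above 0 against hard palate (median 6.45), while hair-type keratins lie to the upper right (medians 4.39 and 7.19); both axes use the same tongue samples.

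Transcription factors that pattern the embryonic jaws and face separated the sides in both directions. Among 22 tested factors of a list for the mandibular arch and the tongue, 5 passed higher and 1 lower in tongue, against 2.97% and 0.414% of all genes, and 4 were without overlap upwards and 3 downwards, against 4.08% and 3.11% of all genes; the list's median log2 fold change was 0.06, against −0.0017 over all genes. Among 47 tested factors of a list for the maxilla, palate and face, 2 passed higher and 7 lower, 6 of the 7 without overlap; its median was −0.25. Both lists thus held factors in either direction, and most members of both did not pass.

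Tlx1, a homeobox gene known for its need in spleen formation, had 40.5, 27.0, 23.5 and 25.8 CPM in the tongue samples. It had 0.912 and 0.253 CPM in buccal mucosa and 0.243 and 0.259 CPM in hard palate. Every tongue sample was far above every other sample, with dorsal tongue slightly above ventral tongue. The log2 fold change was 6.14 ± 0.40 (SE, n = 4 samples a side) with an adjusted p of 0.00381 in edgeR, and the adjusted p stayed between 0.00029 and 0.0425 whichever sample was left out. In the fit with a single mean for each side, the Tlx1 log2 fold change had an adjusted p of 0.0316 in edgeR. Tlx1 lies at chr19:45150680-45156943 on the plus strand of GRCm38, a neighbour of Lbx1 at chr19:45232684-45235812 on the minus strand. Lbx1, a homeobox gene of migrating tongue muscle precursors, separated the sides as well. It had 19.7, 33.8, 38.2 and 56.6 CPM in tongue, against 6.78 and 17.4 CPM in buccal mucosa and 0.340 and 0.0324 CPM in hard palate (log2 fold change 4.62 ± 0.60, adjusted p 0.0129 in edgeR). Its buccal values came close to the lowest tongue value, unlike those of Tlx1.

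Hand2, a helix-loop-helix factor of the ventral mandibular arch, had 23.3, 17.7, 28.9 and 33.6 CPM in tongue. Its values were 2.28 and 1.52 CPM in buccal mucosa and 0.534 and 0.227 CPM in hard palate. No sample of the cheek or palate reached the tongue range. The log2 fold change was 4.89 ± 0.34 (adjusted p 0.00381, edgeR), and against buccal mucosa alone it was 3.71 with an adjusted p of 0.0558. Foxf2, a forkhead factor of facial mesenchyme, had 17.2, 27.0, 20.7 and 28.3 CPM in tongue, against 0.912 and 0.379 CPM in buccal mucosa and 3.45 and 5.73 CPM in hard palate. Here hard palate held the intermediate place (log2 fold change 3.70 ± 0.36, adjusted p 0.00765 in edgeR). Nkx2-5, best known as a heart factor and also expressed in embryonic tongue muscle, had 8.32, 10.7, 8.34 and 8.51 CPM in tongue. It had 0.741 and 2.15 CPM in buccal mucosa and 0.0971 and 0 CPM in hard palate, the last allowing up to 0.114 CPM at a floor of 3 UMIs. Its log2 fold change was 5.13 ± 0.61 (adjusted p 0.0100, edgeR). Tbx3, a T-box factor, had a narrower gap, with 115, 105, 39.7 and 35.3 CPM in tongue against 23.6 and 31.9 CPM in buccal mucosa and 9.90 and 15.9 CPM in hard palate (log2 fold change 1.76 ± 0.23, adjusted p 0.0120 in edgeR). Its dorsal values were well above its ventral values.

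On the other side stood Shox2, a homeobox gene needed for the front of the palate. It had 1.11, 1.02, 1.01 and 0.554 CPM in tongue, against 14.1 and 19.98 CPM in buccal mucosa and 12.7 and 38.8 CPM in hard palate. The 4 tongue samples held 65 UMIs in all, against 1867 UMIs in the other 4. The log2 fold change was −4.52 ± 0.46 (adjusted p 0.00768, edgeR), and leaving out 1 sample moved the adjusted p between 0.00128 and 0.0516. With a single mean for each side the Shox2 log2 fold change had an adjusted p of 0.0407 in edgeR. Shox2 had the widest gap among genes that passed as lower in tongue.

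Of the Iroquois homeobox genes, which lie in clusters in the genome, 3 passed and were lower in tongue. Irx5 had 1.79, 1.24, 0.740 and 1.31 CPM in tongue, against 27.4 and 68.3 CPM in buccal mucosa and 4.71 and 12.4 CPM in hard palate. Irx3, its neighbour on chromosome 8, had 7.21, 7.79, 2.35 and 4.94 CPM in tongue, against 15.1 and 28.3 CPM in buccal mucosa and 22.6 and 22.6 CPM in hard palate. Irx2, on chromosome 13, had 0.105 to 0.404 CPM in tongue, against 2.45 and 43.6 CPM in buccal mucosa and 4.13 and 2.01 CPM in hard palate. All 3 kept clear of the tongue values in every cheek and palate sample, and the single highest value of each was that of buccal mucosa replicate 2. The log2 fold changes were −4.01 ± 0.50, −2.08 ± 0.32 and −5.33 ± 1.01 for Irx5, Irx3 and Irx2, with adjusted p of 0.0110, 0.0218 and 0.0414 in edgeR; that of Irx2 shrank to −3.73 without buccal mucosa replicate 2.

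Six2 and Meis2, homeobox genes of craniofacial mesenchyme, were lower too. Six2 had 1.26, 2.26, 3.43 and 3.22 CPM in tongue, against 6.90 and 8.34 CPM in buccal mucosa and 14.9 and 20.6 CPM in hard palate (log2 fold change −2.26 ± 0.28, adjusted p 0.0107 in edgeR). Meis2 had 12.2, 8.30, 31.7 and 36.3 CPM in tongue, against 50.3 and 40.2 CPM in buccal mucosa and 167 and 119 CPM in hard palate (log2 fold change −2.11 ± 0.23, adjusted p 0.00894 in edgeR). For both, dorsal tongue was lowest and hard palate highest, with the lining sites between. Dlx6, a distal-less gene of the mandibular arch, also passed as lower, but it rested on few UMIs, with at most 0.105 CPM in tongue against 0.513 and 0.126 CPM in buccal mucosa and 3.40 and 1.43 CPM in hard palate. Lhx8, a LIM homeobox gene of the oral mesenchyme, separated the sides with 2.37 to 3.89 CPM in tongue against 5.34 to 9.12 CPM in cheek and palate, with an adjusted p of 0.0830 in edgeR.

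**Figure D2:**
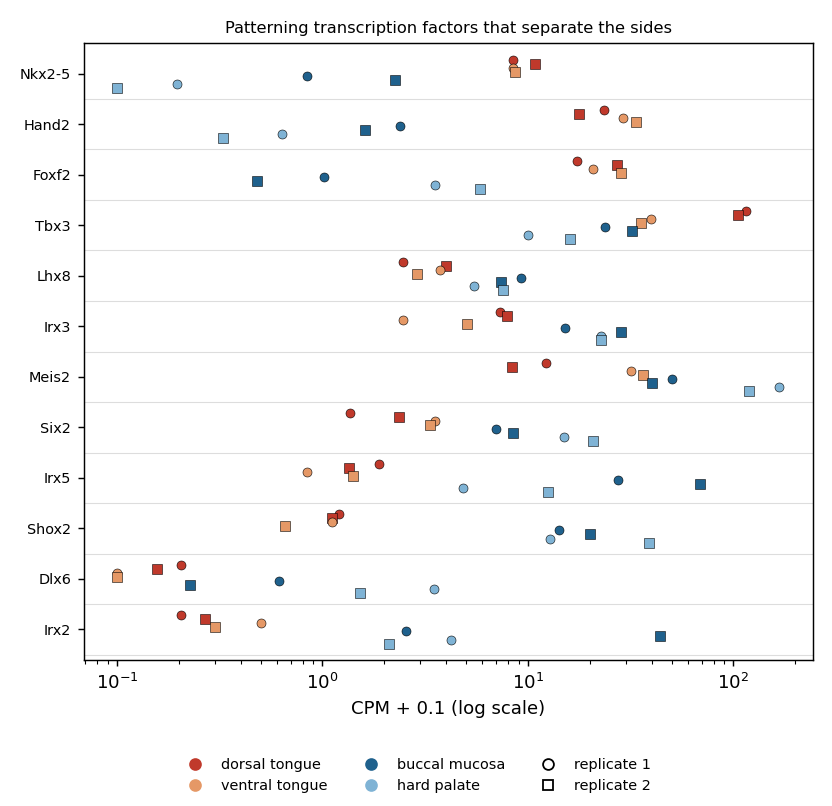
CPM + 0.1 (log axis) of patterning factors without overlap between the sides, 1 point a sample, ordered by log2 fold change. At most 6 factors of each list are shown, those with the widest gaps. Tongue samples are in red and orange and cheek and palate samples in blue. Nkx2-5, Hand2, Foxf2 and Tbx3 lie to the right in tongue, and the 8 factors from Lhx8 down to Irx2 lie to the left.

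Wide gaps were also found among hair-type keratins and the keratin-associated proteins that pack with them in hair and filiform papillae. Krtap13-1 and Krtap3-1 had the widest gaps among the genes that passed. Of 20 tested members of a list of hair-type keratins and their partners, 12 passed higher in tongue and none lower, against 2.97% of all genes passing higher, and 12 were without overlap upwards, against 4.08% of all genes; the median log2 fold change was 5.65. Of 25 tested genes with a Krtap symbol, a family chosen after its values were seen, 18 passed higher and 20 were without overlap. Reads of such near-identical genes may be split between members, so single members are uncertain. Krt36, an acidic hair-type keratin, had 2614, 2919, 288 and 575 CPM in tongue. It had 30.8 and 0.632 CPM in buccal mucosa and 5.29 and 1.68 CPM in hard palate. The lowest tongue sample was thus more than 9 times the highest of the others, and dorsal tongue was above ventral tongue. The log2 fold change was 7.20 ± 1.22 (adjusted p 0.0294, edgeR). Krt36 came near the limit of 4096 UMIs a section, with 3442 UMIs in 1 section, and the Krt36 log2 fold change was 7.75 from read counts, which have no such limit. The adjusted p of Krt36 ran up to 0.164 when 1 sample was left out.

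Krt31, its neighbour among the acidic hair keratins, had 373, 297, 12.2 and 16.8 CPM in tongue, against 1.77 and 1.26 CPM in buccal mucosa and 0.388 and 0.130 CPM in hard palate. Its log2 fold change of 6.80 ± 0.40 had an adjusted p of 0.00381 in edgeR and passed in each of the 8 fits that left out 1 sample. The basic partners showed the same order. Krt87 had 676, 666, 22.7 and 40.6 CPM in tongue, against 1.88 and 0.885 CPM in buccal mucosa and 0.582 and 0.194 CPM in hard palate (log2 fold change 7.62 ± 0.52, adjusted p 0.00381 in edgeR). Krt83 had 287, 203, 9.62 and 14.7 CPM in tongue, against at most 0.684 CPM in any other sample. For Krt33a the ventral samples were close to the others, with 104, 96.0, 0.673 and 1.16 CPM in tongue, against 0.513 and 0.253 CPM in buccal mucosa and 0.0971 and 0.0648 CPM in hard palate. In ventral tongue the separation of Krt33a thus rested on few UMIs.

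Krtap13-1, a keratin-associated protein gene, had 1349, 877, 118 and 150 CPM in tongue, against 3.82 and 0.126 CPM in buccal mucosa and 0.485 and 0.0648 CPM in hard palate (log2 fold change 9.02 ± 1.09, adjusted p 0.0102 in edgeR). Krtap3-1 followed with 2050, 1621, 214 and 305 CPM in tongue, against 7.81 and 0.126 CPM in buccal mucosa and 0.728 and 0.162 CPM in hard palate. Summed over the family, tongue samples had 18182, 13481, 882 and 1319 CPM, against 132 and 0.885 CPM in buccal mucosa and 136 and 143.5 CPM in hard palate. The Rik clones 2310061N02Rik and 2310034C09Rik, for which no role is given here, had the next gaps among the genes that passed, 4.12 and 3.72. A pair of regulators stood beside this group. Lef1, a transcription factor of Wnt signalling that acts in hair shaft formation, had 22.5, 53.0, 13.3 and 31.2 CPM in tongue, against 1.31 and 1.77 CPM in buccal mucosa and 5.92 and 2.62 CPM in hard palate (log2 fold change 3.51 ± 0.49, adjusted p 0.0156 in edgeR). Hoxc13, a homeobox regulator of hair keratins, passed with overlap, at 55.0, 80.4, 3.23 and 9.07 CPM in tongue against 0.570 and 3.41 CPM in buccal mucosa and 0.0971 and 0.0972 CPM in hard palate.

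Other partners of hair differentiation did not follow. Foxn1 had 22.8, 22.7, 6.73 and 9.72 CPM in tongue, against 11.6 and 1.26 CPM in buccal mucosa and 33.4 and 33.9 CPM in hard palate. Msx2 and Dlx3 overlapped between the sides as well, with adjusted p of 0.585 and 0.915 in edgeR. The keratinocyte list did not separate the sides, with 20607 to 27837 CPM in tongue against 1016 to 23895 CPM in cheek and palate. Of its 20 genes 0 passed in edgeR, 0 had an unadjusted p under 0.05 and 0 passed in DESeq2.

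**Figure D3:**
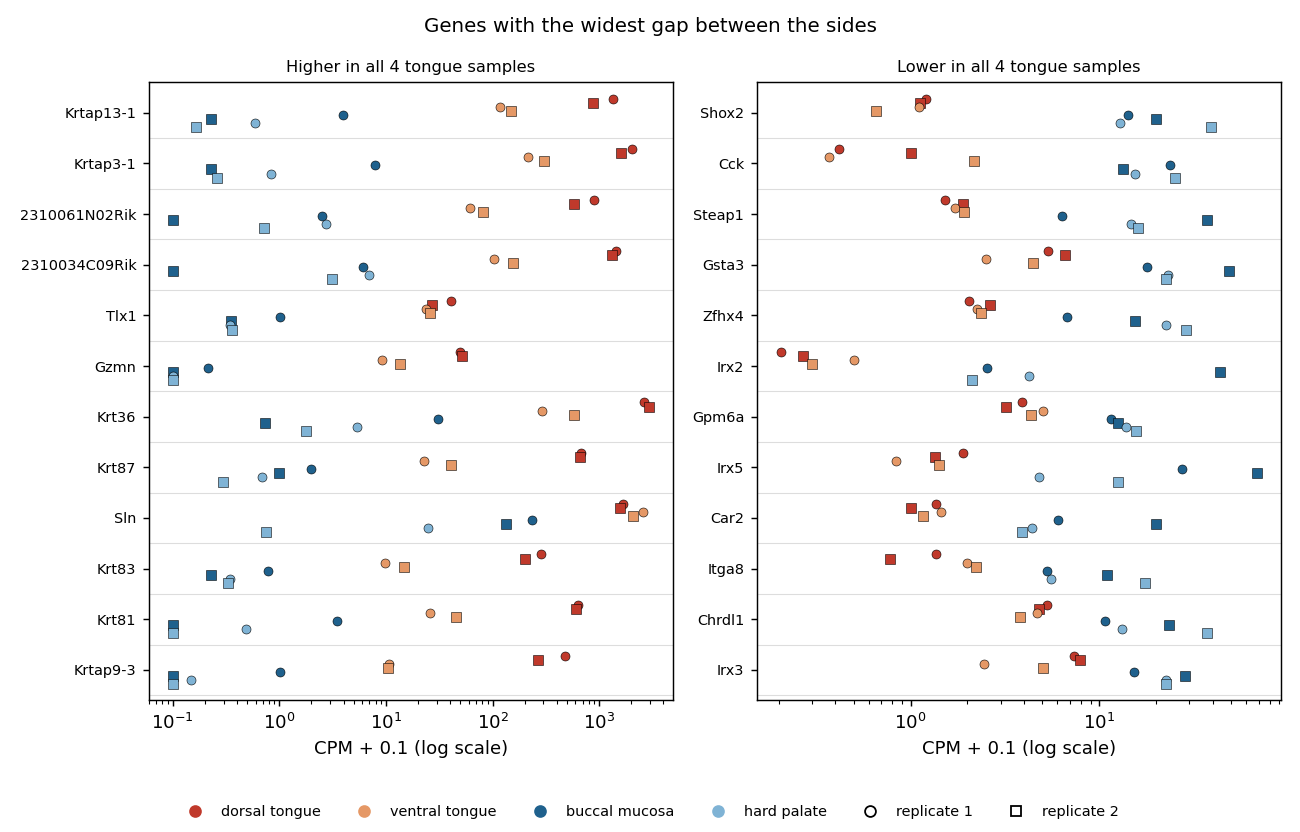
CPM + 0.1 (log axis) in every sample for the 12 passing genes with the widest gap higher in tongue (left) and the 12 lower in tongue (right), 1 point a sample. On the left Krtap13-1 spans 118 to 1349 CPM in tongue and at most 3.82 CPM elsewhere; on the right Shox2 stays at or under 1.11 CPM in tongue and at or above 12.7 CPM elsewhere.

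The bases before the start of 4 of these genes are shown, a pair of hair keratins and a pair of homeobox genes, since these genes carry the separation in either direction. They are the 250 bases upstream of the RefSeq gene start in GRCm38.p6, written 5′ to 3′ on the gene's strand, at chr11:100050552-100050801 (minus strand) for Krt31, chr11:100105627-100105876 (minus) for Krt36, chr19:45150465-45150714 (plus) for Tlx1 and chr3:66981772-66982021 (minus) for Shox2. Capitals mark the core of the TATA box (TATAAA) or the core of LEF1/TCF sites (CTTTGA), searched on both strands, so that a match on the opposite strand stands as its reverse complement.
Krt31: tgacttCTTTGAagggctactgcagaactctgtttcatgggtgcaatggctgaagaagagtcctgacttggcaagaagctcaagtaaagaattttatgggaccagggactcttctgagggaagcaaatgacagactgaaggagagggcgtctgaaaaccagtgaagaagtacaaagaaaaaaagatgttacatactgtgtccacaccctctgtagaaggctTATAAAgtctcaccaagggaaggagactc
Krt36: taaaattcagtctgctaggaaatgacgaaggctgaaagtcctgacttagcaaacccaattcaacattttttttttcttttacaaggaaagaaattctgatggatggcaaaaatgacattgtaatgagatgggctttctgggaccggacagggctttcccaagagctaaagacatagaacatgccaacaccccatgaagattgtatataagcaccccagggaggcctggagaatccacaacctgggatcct
Tlx1: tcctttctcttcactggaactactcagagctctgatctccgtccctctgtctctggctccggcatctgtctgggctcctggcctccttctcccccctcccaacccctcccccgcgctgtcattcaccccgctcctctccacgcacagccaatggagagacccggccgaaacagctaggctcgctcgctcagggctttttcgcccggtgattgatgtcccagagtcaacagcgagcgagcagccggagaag
Shox2: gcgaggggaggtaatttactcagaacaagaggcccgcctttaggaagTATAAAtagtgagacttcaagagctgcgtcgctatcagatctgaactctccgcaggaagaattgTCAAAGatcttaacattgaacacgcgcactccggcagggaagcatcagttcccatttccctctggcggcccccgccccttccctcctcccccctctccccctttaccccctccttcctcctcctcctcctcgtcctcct
Krt31 held 1 match of each motif, its TATA box core beginning 29 bases upstream of the gene start and its LEF1/TCF core 244 bases upstream. Shox2 held 1 match of each as well, 203 and 139 bases upstream, the second on the opposite strand. Krt36 and Tlx1 held none in these windows. Over 32851 promoter windows of the same length, 12.4% held the TATA box core and 13.8% the LEF1/TCF core, so single matches are common and are given as a description only.

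Sarcolipin, encoded by Sln, a small inhibitor of the calcium pump of muscle, was among the 12 passing genes with the widest gaps higher in tongue. Sln is not a member of the skeletal muscle list. It had 1682, 1581, 2597 and 2066 CPM in tongue, against 232 and 134 CPM in buccal mucosa and 24.5 and 0.648 CPM in hard palate. All tongue samples lay above all others, although buccal mucosa replicate 2 held more muscle transcripts than any tongue sample. The log2 fold change was 5.35 ± 1.05 (adjusted p 0.0466, edgeR), and with 1 sample left out the adjusted p ran from 0.0294 to 0.160. Relative to 1000 CPM of the skeletal muscle list, Sln was 52.4, 49.1, 51.8 and 48.2 CPM in tongue. It was 7.99 and 1.69 CPM in buccal mucosa and 29.4 and 1.71 CPM in hard palate, where the list itself was near 0. The tongue ratios lay within a narrow band, whereas muscle content varied between tongue samples.

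The muscle list as a whole behaved otherwise. Of its 33 tested genes 17 passed higher in tongue and none lower, yet 0 were without overlap, and the medians were −0.57 against buccal mucosa and 6.45 against hard palate. Myoz2, a sarcomere protein of slow fibres, had 36.1, 29.8, 40.6 and 31.8 CPM in tongue, against 30.6 and 52.1 CPM in buccal mucosa and 0.485 and 0.389 CPM in hard palate. Its tongue and buccal values overlapped, and only hard palate was low. Of 20 tested genes of muscle formation, 8 passed higher, against 2.97% of all genes, and 4 were without overlap upwards, against 4.08%. Myogenin, Myog, the regulator of muscle fusion, had 10.1, 15.5, 17.9 and 23.1 CPM in tongue, against 8.50 and 2.40 CPM in buccal mucosa and 0.0485 and 0 CPM in hard palate (log2 fold change 5.39 ± 0.62, adjusted p 0.00951 in edgeR). Mef2c, which works with it, had 271, 315, 458 and 480 CPM in tongue, against 199 and 266 CPM in buccal mucosa and 24.2 and 25.6 CPM in hard palate. Musk, the kinase of the nerve-muscle junction, had 2.47 to 4.44 CPM in tongue and 0.388 to 1.60 CPM elsewhere, with an adjusted p of 0.0727 in edgeR. Hard palate was low both in muscle transcripts and in each of these genes. Within buccal mucosa, replicate 2 held more muscle transcripts than any other sample. Myog was lower in replicate 2 (2.40 CPM) than in replicate 1 (8.50 CPM), whereas Mef2c and Lbx1 were higher. Mef2c had 266 CPM in replicate 2 against 199 CPM in replicate 1, and Lbx1 had 17.4 CPM against 6.78 CPM. Musk had 1.14 CPM in replicate 2 and 1.60 CPM in replicate 1, on only 9 and 28 UMIs. The part of muscle content in the differences was not tested beyond the ratio given for Sln and the fit without the list's genes, in which 605 genes (3.25%) passed.

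**Figure D4:**
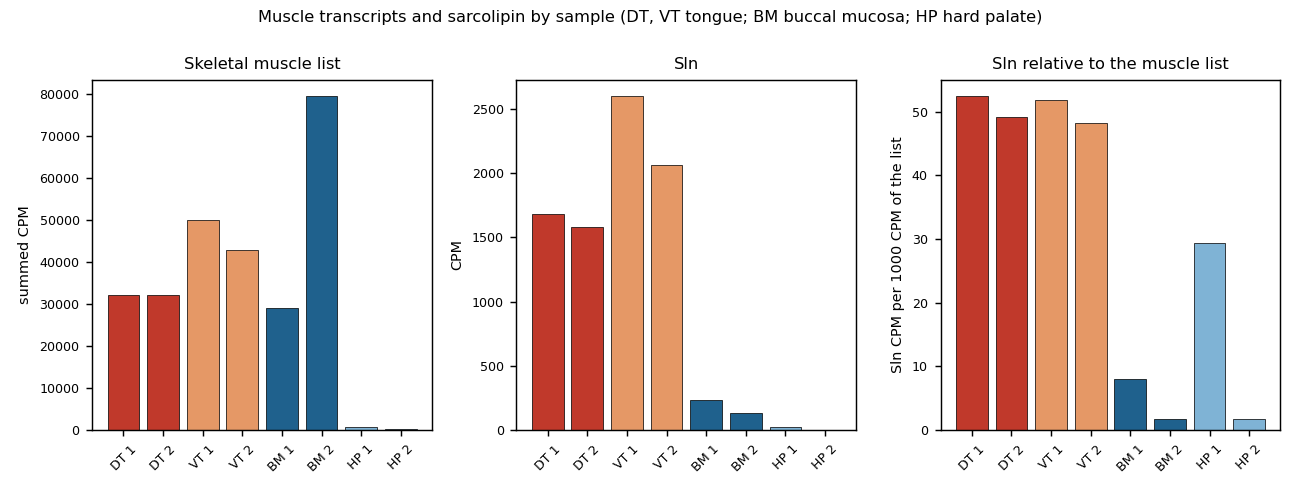
Summed CPM of the skeletal muscle list, CPM of Sln, and Sln per 1000 CPM of the list in each of the 8 samples, tongue samples at left, 1 bar a sample. The ratio is 48.2 to 52.4 in the 4 tongue samples and 1.69 to 29.4 in the others.

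Gzmn, which encodes granzyme N, a serine protease known from mouse testis, had 49.3, 51.3, 9.15 and 13.5 CPM in tongue, or 2250 UMIs over the 4 samples. The other 4 samples held 2 UMIs, both in buccal mucosa replicate 1 (0.114 CPM), so a fold change would rest on the prior count of the fit and is not given; the adjusted p was 0.00381 in edgeR. Lrrc15, a leucine-rich repeat membrane protein, had 275, 207, 15.9 and 19.8 CPM in tongue, against 2.05 and 1.26 CPM in buccal mucosa and 2.43 and 6.61 CPM in hard palate (log2 fold change 4.56 ± 0.40, adjusted p 0.00589 in edgeR). The predicted gene Gm39154 had 6.47, 5.02, 11.3 and 10.7 CPM in tongue and 3 UMIs over the other 4 samples. It differed from the keratins in that ventral tongue was above dorsal tongue.

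Among genes lower in tongue, the peptide hormone gene Cck had 0.316, 0.903, 0.269 and 2.07 CPM in tongue, against 23.5 and 13.3 CPM in buccal mucosa and 15.3 and 25.2 CPM in hard palate (log2 fold change −4.49 ± 0.66, adjusted p 0.0188 in edgeR). The cheek and palate values were close to each other, so neither site carried the difference alone. Zfhx4, a zinc finger and homeodomain factor, had 1.95 to 2.54 CPM in tongue, against 6.67 and 15.4 CPM in buccal mucosa and 22.6 and 28.7 CPM in hard palate. Gpm6a, a membrane glycoprotein of neurons, had 3.10 to 4.91 CPM in tongue and 11.5 to 15.6 CPM in the others, the most even of these genes on the cheek and palate side. Steap1, a metalloreductase, Gsta3, a glutathione transferase, and Car2, carbonic anhydrase, all had their highest value in buccal mucosa replicate 2 (37.3, 48.8 and 19.98 CPM). In the other 3 cheek and palate samples they had 6.21 to 15.97, 17.8 to 23.0 and 3.79 to 5.93 CPM, still above their tongue maxima of 1.81, 6.49 and 1.35 CPM. Itga8, an integrin subunit, had 0.677 to 2.12 CPM in tongue against 5.19 to 17.4 CPM elsewhere.

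The signalling lists were read beside the shares over all genes, of which 2.97% passed higher and 0.414% lower. Of 23 tested members of the FGF family and its targets, 5 passed higher in tongue and none lower, and 5 were without overlap, with a median log2 fold change of 0.46. Fgf9, a ligand, had 3.05, 2.60, 3.83 and 3.68 CPM in tongue, against 1.14 and 1.39 CPM in buccal mucosa and 0.243 and 0.292 CPM in hard palate (log2 fold change 2.47 ± 0.28, adjusted p 0.00936 in edgeR). Fgf7, a mesenchymal ligand for epithelium, had 13.3 to 24.7 CPM in tongue against 5.19 to 11.1 CPM in the others. Etv5 and Etv4, transcription factors induced by FGF signals, had 12.8 to 13.5 and 2.42 to 9.48 CPM in tongue, against 4.43 to 7.53 and 1.77 to 2.28 CPM elsewhere. The log2 fold changes of Fgf7, Etv5 and Etv4 were 1.24, 1.17 and 1.33.

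Of 47 tested Wnt pathway genes, 2 passed higher and 2 lower, beside 3.38% of all genes in either direction; these counts, like those of the next lists, are small and describe single genes, not a pathway. Besides Lef1, the Wnt inhibitor Apcdd1 was higher, with 548, 403, 150 and 142 CPM in tongue against 84.1 and 43.0 CPM in buccal mucosa and 66.8 and 130 CPM in hard palate. Sfrp2, a secreted Wnt modulator, was lower, with 0.474, 1.92, 11.03 and 12.04 CPM in tongue against 17.8 and 31.1 CPM in buccal mucosa and 22.5 and 51.1 CPM in hard palate. The ligand Wnt10b was lower at 0.0564 to 0.403 CPM in tongue against 0.684 to 1.52 CPM. Of 36 genes of the BMP and TGF-beta pathways, the antagonist Nog passed higher, with 16.001, 20.997, 33.6 and 24.8 CPM in tongue against 10.6 and 10.6 CPM in buccal mucosa and 10.8 and 9.36 CPM in hard palate (log2 fold change 1.17 ± 0.20, adjusted p 0.0322 in edgeR). Another antagonist, Chrdl1, passed lower, with 3.73 to 5.16 CPM in tongue against 10.6 to 37.2 CPM. Nog was thus nearly level over the 4 cheek and palate samples, and Chrdl1 was not. Of 11 Hedgehog pathway genes, Hhip, an inhibitor that binds the ligand, was higher, with 20.001, 18.7, 4.51 and 5.44 CPM in tongue against 0.741 and 1.90 CPM in buccal mucosa and 2.38 and 4.11 CPM in hard palate.

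In the other lists few genes passed. Krt19, a keratin of simple and glandular epithelia, was lower, with 0.368, 0.734, 1.82 and 1.86 CPM in tongue against 4.504 and 5.44 CPM in buccal mucosa and 3.49 and 3.63 CPM in hard palate (log2 fold change −2.05 ± 0.31, adjusted p 0.0194 in edgeR). Pi16, a marker of a fibroblast type found around vessels and fascia, was lower, with 10.4, 13.6, 24.6 and 16.7 CPM in tongue against 47.0 and 105 CPM in buccal mucosa and 35.9 and 46.2 CPM in hard palate. Saa1, an acute phase protein, was higher, with 10.4 and 11.3 CPM in dorsal tongue and 0.471 and 0.554 CPM in ventral tongue, against 0.0972 to 0.285 CPM elsewhere. Of 43 cornified envelope genes, 7 were without overlap and higher in tongue but 0 passed in edgeR, with 5 higher and 2 lower at an unadjusted p under 0.05 and 2 higher and 2 lower in DESeq2. Among them Lor, loricrin, had 3632 to 4286 CPM in tongue, against 3303 and 12.3 CPM in buccal mucosa and 2154 and 2401 CPM in hard palate. Lor reached the limit near 4096 UMIs a section, with up to 4101 UMIs, so its CPM depend in part on section totals. Its UMIs were 62473 to 75943 in the tongue samples and 44373 and 74091 in hard palate. Tgm3, Krtdap and Asprv1 of this list came near the limit too, with up to 4070, 4016 and 3902 UMIs in a section. How far saturation shaped these separations was not tested. Of 12 tested taste bud genes, Car4 alone passed, with overlap, at 4.26 to 9.82 CPM in tongue against 3.08 and 8.60 CPM in buccal mucosa and 0.0485 and 0 CPM in hard palate. Salivary gland and adipocyte genes lower in tongue, such as Aqp5 and Adipoq, did not pass and had their highest values, 393 and 364 CPM, in buccal mucosa replicate 2.

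Lists of further cell types held few genes that passed. Of 21 endothelial, 24 leukocyte, 18 Schwann cell and 5 red blood cell genes tested, 0 passed in edgeR; at an unadjusted p under 0.05 there were 4, 3, 4 and 0, and in DESeq2 0, 2, 1 and 0. Of 17 smooth muscle and pericyte genes the 1 that passed was Des, which skeletal muscle also makes; 8 were higher and 7 lower at an unadjusted p under 0.05. Mustn1 separated the sides without passing, at 220 to 472 CPM in tongue against 29.6 to 164 CPM. Of 32 fibroblast and matrix genes Pi16 alone passed, while the elastic fibre gene Mfap5 separated the sides at 201 to 369 CPM in tongue against 20.8 to 153 CPM, with an adjusted p of 0.203 in edgeR. Acan, the cartilage proteoglycan aggrecan, was the 1 of 16 bone and cartilage genes that passed, lower in tongue; it had at most 0.134 CPM in tongue and at most 0.126 CPM in buccal mucosa, against 4.85 and 2.53 CPM in hard palate. Of 20 genes of retinoid metabolism Aldh1a3, an enzyme that makes retinoic acid, passed lower, with 0.684 to 1.18 CPM in tongue, against 0.855 and 1.77 CPM in buccal mucosa and 9.32 and 12.9 CPM in hard palate. For Acan and Aldh1a3, hard palate alone was high. Of 35 antimicrobial and defence genes Saa1 passed higher and the chemokine Cxcl1 lower; at an unadjusted p under 0.05 there were 2 higher and 11 lower, and in DESeq2 2 higher and 9 lower.

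The section series showed where in the tissue these genes were counted. Over sections with at least 50000 UMIs, 17 to 20 a sample, the rank correlation of each gene with the summed keratinocyte, muscle and fibroblast lists is given as a description; the points share a library and their CPM values sum to a constant. Of the 8 hair-type keratins named by the lists or gaps, all ran with the keratinocyte list in dorsal tongue, and all but Krt33a ran against it in ventral tongue; Krt33a had 0.0747 and −0.0707 there. For Krt36 the correlation was 0.804 and 0.968 in dorsal tongue (19 sections each), and −0.707 and −0.684 in ventral tongue (20 sections each). Levels followed suit. Krt87 in dorsal tongue had 1048 and 1038 CPM in sections 1 to 5 and 263 and 299 CPM in sections 16 to 20, while in ventral tongue it had 10.9 and 22.4 CPM in sections 1 to 5 and 26.3 and 52.7 CPM in sections 16 to 20. The keratinocyte list in ventral tongue had 36684 and 24283 CPM in sections 1 to 5 and 16358 and 17154 CPM in sections 16 to 20. In ventral tongue Krt87 thus had a higher CPM in sections 16 to 20, where the keratinocyte list had a lower CPM. UMI counts saturate near 4096 a gene and section, so the CPM of a saturated gene falls as a section's total rises. In the ventral tongue samples 147 and 155 counts of a gene in a section were at or near that limit. How far saturation shaped the list's CPM and the correlations with it was not tested. From which cells or which surface of the tongue Krt87 came was not tested either. Tlx1 showed the same split in a weaker form, with correlations of 0.405 and 0.679 in dorsal tongue and 0.00752 and −0.508 in ventral tongue.

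Hand2, by contrast, was spread through the depth, with 24.7, 14.0, 30.1 and 38.5 CPM in sections 1 to 5 of the tongue samples and 20.2, 15.8, 20.2 and 25.2 CPM in sections 16 to 20. Foxf2 and Nkx2-5 had more in the later sections. Foxf2 had 9.94, 10.4, 3.76 and 16.3 CPM in sections 1 to 5 of the tongue samples and 20.3, 30.8, 25.5 and 34.1 CPM in sections 16 to 20. Nkx2-5 had 2.42, 3.56, 2.09 and 4.40 CPM in sections 1 to 5 and 11.7, 16.9, 12.2 and 12.1 CPM in sections 16 to 20. Their correlations with the muscle list in tongue were 0.526 to 0.854 for Foxf2 and 0.402 to 0.816 for Nkx2-5, while Sln had 0.914 to 0.953. Shox2 in cheek and palate ran with the fibroblast list, at 0.657 to 0.770. The gap between the sides was present at both ends of the series for Tlx1, Hand2 and Shox2: in sections 16 to 20 Shox2 had 0.902 to 1.41 CPM in tongue against 10.3 to 72.5 CPM in the others. When only sections 1 to 10 were summed, 266 genes passed (1.6%), and 887 (5.22%) passed in sections 11 to 20.

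**Figure D5:**
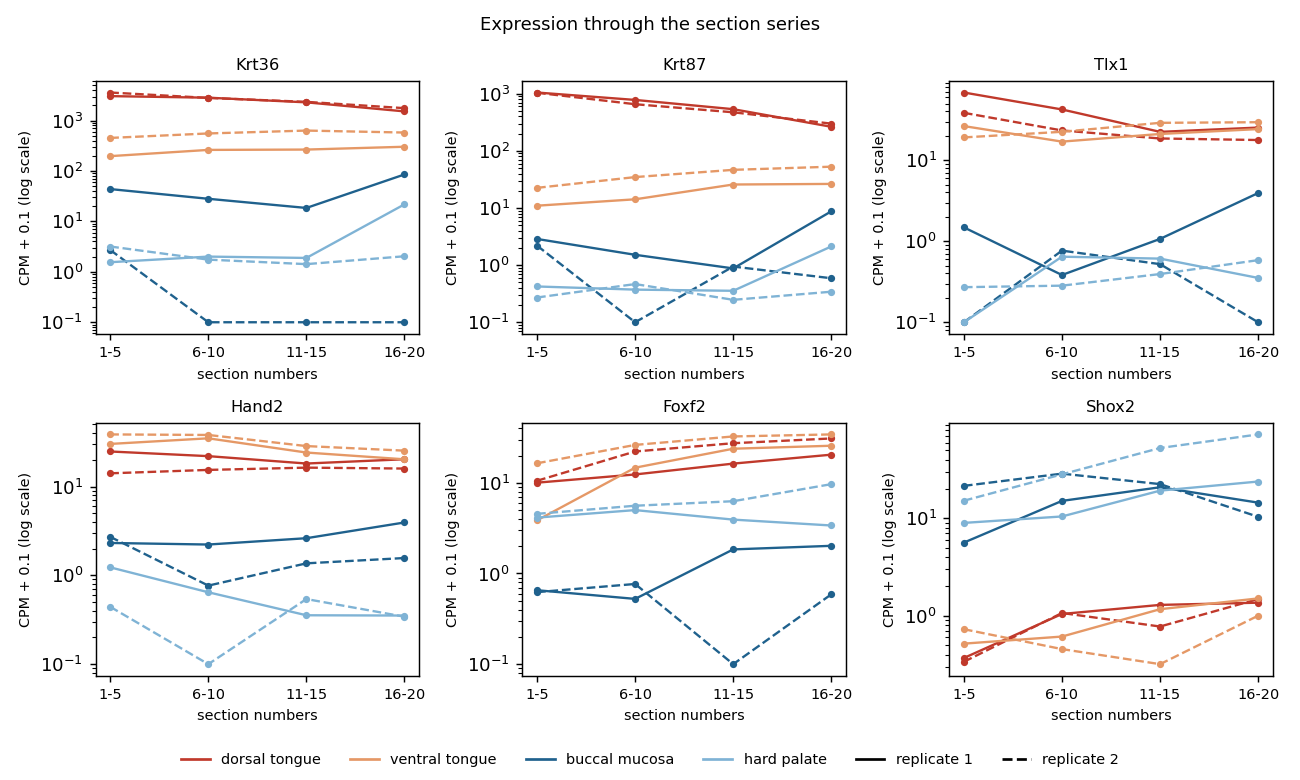
CPM + 0.1 (log axis) of 6 genes in 4 blocks of 5 sections along each sample's section series, 1 line a sample, tongue in red and orange and the other sites in blue. Krt36 and Krt87 fall along the series in dorsal tongue and are higher in sections 16 to 20 than in sections 1 to 5 in ventral tongue, whereas Hand2 stays within 14.0 to 38.5 CPM in every tongue block.

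Whether the separation depended on the pair of sites was tested as (dorsal tongue minus hard palate) minus (ventral tongue minus buccal mucosa). Of all genes, 172 (0.924%) passed in edgeR. Krt33a, Krt31, Krt87 and Krt83 were among them, with differences of 9.04, 7.14, 6.32 and 5.30 on the log2 scale and adjusted p of 0.0193, 0.0282, 0.0398 and 0.0469 in edgeR. Their excess was thus larger in the pair of dorsal tongue and hard palate. Myoz2 and Xirp2, muscle genes that hard palate nearly lacks, had differences of 6.41 and 6.63. Meis2 had −3.39 (adjusted p 0.0373, edgeR), the deficit being larger in the pair of dorsal tongue and hard palate. For Tlx1, Hand2, Shox2 and Gm39154 the differences were 1.78 ± 0.71, 1.76 ± 0.61, −0.14 ± 0.86 and 0.77 ± 1.00 (SE), with adjusted p of 0.404, 0.343, 0.974 and 0.865 in edgeR, which does not show that the pairs were alike. With the replicate number as a block 0 genes passed this test in edgeR, with 1946 at an unadjusted p under 0.05. Leaving out any one of the tongue or hard palate samples also left 0 genes passing this test in edgeR, with 1244 to 2158 at an unadjusted p under 0.05, against 2183 with all samples and 711 passing in DESeq2.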

How the data were processed

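Per the labels' protocols, each section's RNA was isolated with a NucleoSpin RNA XS kit, converted to CEL-seq2 libraries and run on a NextSeq500. The submitters' processing notes name STAR 2.7.9a, Trim Galore 0.6.10 and GRCm38. Not given in the sources used here are the counting program, its strand setting and its handling of shared reads. The authors deposited, for each sample, gene by section tables of UMI counts, of read counts and of estimated counts of transcripts, which correct UMI counts for collisions as the values show. UMI counts were used unless stated; they saturate near 4096 a gene and section.

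Each sample's 20 sections were added up. Of 33549 listed entries, 413 name several genes (0.185% to 0.251% of UMIs); they stayed in library sizes and were never named. Genes were kept by filterByExpr, scaled by TMM and fitted with 4 site means (quasi-likelihood F-test of edgeR 4.0.16 under R 4.3.3). P-values were adjusted by Benjamini-Hochberg over all 18609 genes, and a gene passed under 0.05. SE is the fold change divided by the square root of F. Estimated transcripts were rounded for the alternative fit. DESeq2 1.42.0 was another alternative. Simulated data with the same design and the common dispersion of the real fit (0.192) recovered 5.97% of genes changed by a log2 fold of 1, 64.2% at 2 and 100% at 4, with 5 false calls among 18203 genes. Many smaller changes can thus be missed. The changed genes were drawn only from genes with higher counts, and every gene had the same dispersion. Recovery of genes with few UMIs is therefore not given. A count of 0 allows up to 3 UMIs, for counting error only.

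The members, lists and alternatives were chosen with earlier results of these data known. Named genes are the 12 passing genes with the widest gap in each direction, up to 6 members without overlap of each of 24 lists (up to 2 passing members for a list without any), and genes passing against both single sites, which like the Krtap family, Hoxc13, Foxn1, Msx2 and Dlx3 were chosen after their values were seen. Replicate numbers were not taken as pairs. Deviations of same-numbered samples correlated between dorsal and ventral tongue (0.532) but at −0.255 to 0.133 between the other sites. In hard palate Xist was high in replicate 2 (289 CPM) and low in replicate 1 (0.194 CPM), the reverse of the other sites. Same-numbered samples of hard palate and the other sites thus differed in sex.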

Additional observations from a re-analysis of the deposited data

Results flagged for a closer look

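Some values stood apart from the other samples of their side, by a test that marks about 1 group in 20 by chance. Most were buccal mucosa replicate 2, which had the lowest values of Krt15 (6.83 CPM), Krt4 (21.7 CPM), Lce3c (2.15 CPM), Lce3a (1.64 CPM), Lor (12.3 CPM), Asprv1 (13.3 CPM), Tgm3 (10.5 CPM), Krtdap (5.94 CPM) and Slpi (6.07 CPM), and the highest of Aqp5 (393 CPM). Its mitochondrial transcripts took 7.2% of UMIs. Buccal mucosa replicate 1 was the highest of the cheek and palate samples for Tlx1 (0.912 CPM), Gzmn (0.114 CPM) and Krtap9-3 (0.912 CPM), all still below every tongue sample. Ventral tongue replicate 2 had the lowest tongue value of Shox2 (0.554 CPM). Dorsal tongue replicate 2 had the highest tongue values of Adipoq (0.621 CPM) and Nkx2-5 (10.7 CPM). Hard palate replicate 2 had the lowest Nog (9.36 CPM) and hard palate replicate 1 the lowest Bmp5 (0.874 CPM) of the cheek and palate samples. The test weighs a distance against the range of the side, so a small difference, as for Nog, can be marked. The marked Gzmn value rested on 2 UMIs.

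The difference of tongue from the other side depended on the pair of sites, by the edgeR test of (dorsal tongue minus hard palate) minus (ventral tongue minus buccal mucosa), for Krt33a (9.04 on the log2 scale), Krt31 (7.14), Krt87 (6.32), Krt83 (5.30), Xirp2 (6.63), Myoz2 (6.41) and Meis2 (−3.39). This edgeR test passed 0 genes with the replicate number as a block and 0 in sections 1 to 10. At an unadjusted p under 0.05 these fits had 1946 and 1933 genes.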

How the results depend on the processing

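With all samples 629 genes passed, 1338 were without overlap, 269 met both and 172 passed the pair test. Leaving out 1 sample gave 106 to 3033 genes passing, 1774 to 3539 without overlap, 54 to 1226 meeting both and 0 to 2753 passing the pair test; the high counts came without a buccal mucosa sample, and 13 of the 57 passing named genes passed in all 8 fits. In the same order, no filter on low counts gave 2232, 1592, 578 and 1340, and DESeq2 1664, 1327, 596 and 711. A single mean for each side gave 3 passing and 3 meeting both. Sections 1 to 10 gave 266, 965, 145 and 0, and sections 11 to 20 gave 348 for the pair test. Against buccal mucosa alone the counts were 17, 4115 and 17, and against hard palate alone 1560, 7585 and 1554; 12 genes passed against both singly, a check chosen after seeing the data. Dorsal tongue alone gave 356 passing and 3351 without overlap, ventral tongue alone 3013 without overlap. Myoz2 (−0.26) and Xirp2 (−0.12) reversed against buccal mucosa alone. Size factors by RLE, reads, estimated transcripts and removal of the muscle list kept all 4 counts within 1.5 times. Same-numbered samples of dorsal and ventral tongue deviated together, but not those of every pair of sites; a fit with the replicate number as a block gave 375, 161 meeting both and 0 for the pair test. That block joined hard palate samples with samples of the other sex from the other sites. At an unadjusted p under 0.05, 3322 genes passed in edgeR with all samples. The rule of no overlap is easier to meet with fewer samples, so such counts do not compare directly with 1338. What else changed the counts was not tested. Genes of few UMIs and saturated genes have the least certain fold changes, and 2 samples a site limit every test.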
